A study of Homo sapiens with 6 samples.

Results

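The genes described here encode 8 matrix-binding integrin subunits used by migrating keratinocytes, namely ITGA2, ITGA3, ITGA5, ITGAV, ITGB1, ITGB5, ITGB6 and ITGB8. They were chosen by name, with earlier results of these data known. Each has 1 row among the 21462 genes of the count table, which holds all 26 human integrin subunit genes. Poly(A) RNA came from 2 conditions, A431CT and Dsg2KO, with 3 libraries each. A431 is a human epidermoid carcinoma line that serves as a keratinocyte model and is known for its amplified epidermal growth factor receptor gene EGFR. The A431CT cells carry the genotype WT, and the Dsg2KO cells were made from A431 by CRISPR/Cas9 knockout of the desmosomal cadherin DSG2. Cells of both conditions were grown in DMEM with fetal bovine serum, and no treatment is named for the sequenced samples. The number of edited clones behind the Dsg2KO cells is not given in the sources used here, so an effect of DSG2 loss and a difference between the lines cannot be told apart.

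Integrins are paired receptors, each made of 1 alpha and 1 beta subunit, that link the extracellular matrix to the actin cytoskeleton. In the epidermis α2β1 binds collagen and α3β1 binds laminin-332, while α5β1 and the αv integrins bind ligands with an RGD sequence, such as fibronectin, vitronectin and the latent form of TGF-β. Resting epidermis holds α2β1 and α3β1, and keratinocytes that migrate into a wound are known to add α5β1 and αvβ6. The study asked how loss of Dsg2 changes matrix gene expression and migration, and the comparison below asks whether the receptor genes differ between the same conditions.

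The libraries held 12845719 to 16255692 counts, with the Dsg2KO libraries deeper than the A431CT libraries. Levels are given as CPM, the usual unit of counts scaled to library size, here with edgeR's TMM factors, and a floor of 3 counts corresponded to 0.184 to 0.236 CPM, for counting error only. The targeted gene DSG2 stood at 323 ± 6.08 CPM in A431CT libraries and at 51.9 ± 2.88 CPM in Dsg2KO libraries (SD, n = 3 each), which is 16.1% of the A431CT level. Of 8 keratinocyte markers, which summed to 10170.0 to 10870.0 CPM in A431CT and 10805.3 to 11176.9 CPM in Dsg2KO cells, 7 were measured above the floor, while KRT14, the basal keratin partner of KRT5, had at most 2 counts in any library. EGFR alone made up most of the keratinocyte sum, at 8451 ± 343 CPM in A431CT and 9134 ± 216 CPM in Dsg2KO cells. From A431CT to Dsg2KO cells KRT5 went from 630 to 575 CPM, SFN from 792 to 576 CPM and KRT6A from 8.44 to 4.12 CPM. CDH1 went from 369 to 447 CPM, and the libraries of TP63 and KRT17 overlapped between the conditions. Fibroblast markers summed to 0.315 to 1.03 CPM in A431CT and 2.88 to 4.70 CPM in Dsg2KO cells, with 5 of 8 at or under the floor everywhere and PDGFRA at 0. Most of that sum in Dsg2KO cells was the transcription factor gene TWIST2, at 0.330 ± 0.157 CPM in A431CT and 3.44 ± 0.721 CPM in Dsg2KO cells. Endothelial markers summed to 8.53 to 11.5 and 15.1 to 15.8 CPM, with KDR, TEK and EMCN of the 6 at or under the floor. Those above it had higher means in Dsg2KO cells, with CDH5 at 4.74 ± 0.817 and 8.03 ± 0.148 CPM. PECAM1 was at 4.09 ± 0.865 and 5.95 ± 0.065 CPM, and VWF at 1.17 ± 0.124 and 1.38 ± 0.156 CPM. Leukocyte markers summed to 539 to 570 and 494 to 514 CPM, nearly all of it CSF1R, at 552 ± 15.6 and 502 ± 10.6 CPM. LYZ went the other way, at 2.02 ± 0.200 and 3.19 ± 0.815 CPM, as did the mean of CD14, at 0.309 and 0.548 CPM. PTPRC was at 0.353 and 0.188 CPM, and among the 6, CD3E was at 0 and CD79A at or under the floor. The part of these levels in the results was not tested. In bulk RNA, fewer cells of a type and less RNA per cell cannot be told apart.

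Integrin expression shifted modestly and in both directions in Dsg2KO cells, and ITGB5 was the member with the largest change. ITGA2, ITGA3, ITGA5, ITGB1 and ITGB5 rose and ITGAV and ITGB8 fell, so 7 of the 8 genes had an adjusted p-value under 0.05 in edgeR's quasi-likelihood test, and 8 of 8 an unadjusted one, against 39.5% of all tested genes. Of all 12857 genes that passed the low-count filter, 29.6% did so, 14.3% as higher and 15.3% as lower. Among the 8108 tested genes whose A431CT level lay within the range of the members, the share was 35.7%. Both this threshold and a log2 fold change of at least 0.5, the minimum the study used, were passed by ITGB5 only, which is 1 of 8 genes against 6.03% of all tested genes (2.99% higher and 3.03% lower) and 2.92% of those within the members' range of levels. The median log2 fold change of the 8 genes was 0.24 and that of all tested genes was -0.0048. For each of the 8 genes all libraries of 1 condition lay above all of the other, a separation that 42.6% of the tested genes showed. All 8 passed the filter, with at least 230 counts in every library. Since the members were chosen with earlier results of these data known, their shares are not an unbiased count.

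**Figure D1:**
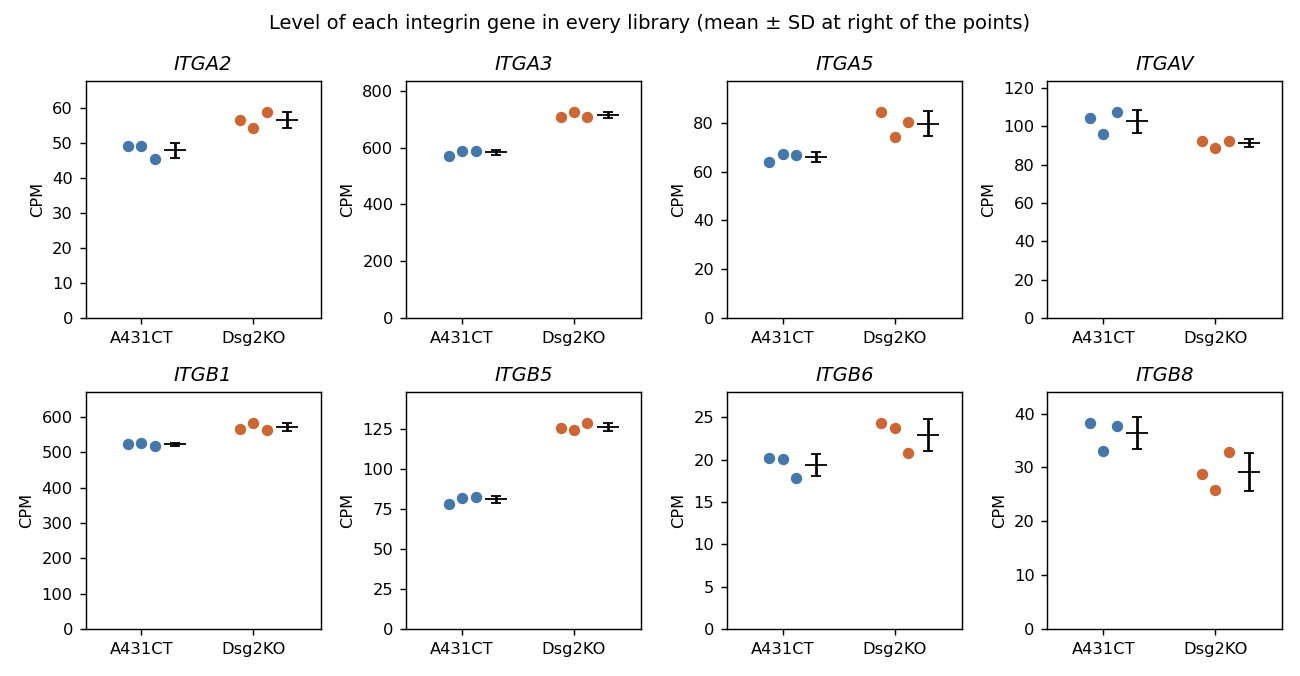
Level of each integrin gene in CPM (vertical axes, each starting at 0) in the 3 A431CT libraries (blue points) and the 3 Dsg2KO libraries (orange points), with the mean and SD as a black bar beside them. The conditions do not overlap in any panel, and the widest relative gap is that of ITGB5, at 78.3 to 82.6 CPM in A431CT and 124 to 129 CPM in Dsg2KO cells.

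Among the alpha subunits, ITGA3 encodes the laminin-binding partner of β1 and had the highest CPM of the 8 genes. It lies on chromosome 17 of GRCh38 from 50055968 to 50090481. Its level was 571, 587 and 590 CPM in the A431CT libraries and 708, 725 and 706 CPM in the Dsg2KO libraries. Every Dsg2KO library was above every A431CT library, and the gap of 116 CPM was far wider than the SD of 10.1 or 10.5 within a condition. On the log2 scale it rose by 0.29 (standard error, SE, 0.03, edgeR adjusted p = 8.73e-06), a level of 122% of A431CT.

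ITGA5 encodes the alpha subunit of the fibronectin receptor α5β1 and lies on chromosome 12 from 54395261 to 54419266. Its A431CT libraries held 63.8, 67.3 and 66.9 CPM and its Dsg2KO libraries 84.4, 74.3 and 80.2 CPM. All Dsg2KO values were higher, with a wider spread among them (SD 5.07 against 1.93). This was a log2 fold change of 0.27 (SE 0.06, edgeR adjusted p = 0.00195). ITGA2, the collagen-binding alpha subunit, lies on chromosome 5 from 52989340 to 53094779. It was at 49.1, 49.2 and 45.6 CPM in A431CT and 56.6, 54.3 and 58.9 CPM in Dsg2KO cells. The conditions were separated by 5.14 CPM, and the log2 fold change was 0.24 (SE 0.06, edgeR adjusted p = 0.00605).

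ITGAV encodes αv, the shared partner of β5, β6 and β8, and lies on chromosome 2 from 186590010 to 186680901. It moved the other way from the remaining alpha members. Its level was 104, 95.8 and 107.4 CPM in A431CT and 92.3, 88.8 and 92.5 CPM in Dsg2KO cells. The lowest A431CT library lay 3.36 CPM above the highest Dsg2KO library, which is less than the A431CT SD of 5.97. The log2 fold change was -0.17 (SE 0.05, edgeR adjusted p = 0.0194). This call did not hold in every fit with 1 library left out. Its adjusted p-value was 0.0736 without A431CT replicate 1 and 0.0808 without A431CT replicate 3. Without Dsg2KO replicate 1 it was 0.0516 and without Dsg2KO replicate 2 it was 0.0810, all from edgeR. Over these fits 2891 to 3442 genes in all passed the adjusted p, in place of 3802 with all libraries.

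Among the beta subunits, ITGB5 pairs with αv to form a vitronectin receptor. The gene lies on chromosome 3 from 124761948 to 124901418. It was at 78.3, 81.9 and 82.6 CPM in A431CT and 125, 124 and 129 CPM in Dsg2KO cells. The gap of 41.6 CPM between the conditions compared with an SD of 2.35 in A431CT and 2.39 in Dsg2KO cells. The log2 fold change was 0.64 (SE 0.04, 95% confidence interval 0.54 to 0.73, edgeR adjusted p = 1.04e-07), a rise of 55.8% in the mean. By p-value ITGB5 ranked 47 among all tested genes. ITGB1 encodes β1, the common partner of α2, α3 and α5, and lies on chromosome 10 from 32887273 to 33005792. Its libraries held 523, 527 and 519 CPM in A431CT and 565, 584 and 563 CPM in Dsg2KO cells. They did not overlap, and the log2 fold change of 0.13 (SE 0.03, edgeR adjusted p = 0.00854) was the smallest of the 8 in size.

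ITGB6 encodes the epithelial β6 subunit, which with αv activates latent TGF-β, and lies on chromosome 2 from 160099667 to 160200313. It had the lowest CPM of the 8 genes. Its values were 20.2, 20.1 and 17.8 CPM in A431CT and 24.4, 23.7 and 20.8 CPM in Dsg2KO cells. The conditions were separated by 0.560 CPM only, less than the SD of 1.33 or 1.90 within them. The log2 fold change of 0.24 (SE 0.09, 95% confidence interval 0.05 to 0.44) had an adjusted p-value of 0.0552 from edgeR and did not pass, with 0.0278 to 0.179 over the alternative settings. Without Dsg2KO replicate 3 the adjusted p-value was 0.0278 (edgeR).

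ITGB8 encodes β8, another partner of αv that binds latent TGF-β, and lies on chromosome 7 from 20330702 to 20415754. It was at 38.3, 33.0 and 37.8 CPM in A431CT and 28.7, 25.8 and 32.8 CPM in Dsg2KO cells. The conditions nearly touched, with a gap of 0.192 CPM between A431CT replicate 2, the lowest of its condition, and Dsg2KO replicate 3, the highest of its own. Its log2 fold change of -0.32 (SE 0.09, 95% confidence interval -0.51 to -0.13, edgeR adjusted p = 0.0138) was the largest fall among the 8. The adjusted p-value was 0.0631 without A431CT replicate 1, 0.0513 without Dsg2KO replicate 1 and 0.0739 without Dsg2KO replicate 2 (edgeR).

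**Figure D2:**
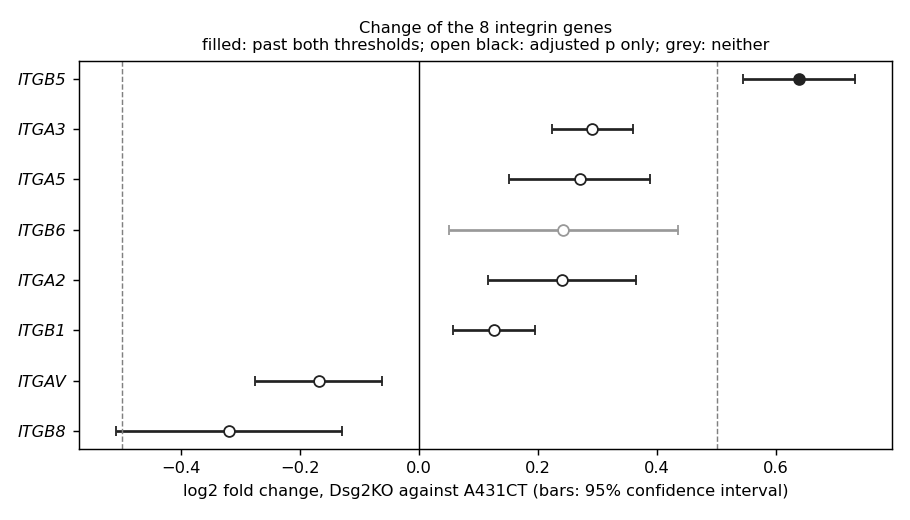
Log2 fold change of each integrin gene in Dsg2KO against A431CT cells (horizontal axis), with bars for the 95% confidence interval from edgeR and dashed lines at the fold change minimum of 0.5 in either direction. Only the interval of ITGB5 lies wholly above 0.5, and the points of ITGAV (-0.17) and ITGB8 (-0.32) lie below 0.

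The start regions of the members that moved furthest apart are shown because ITGB5 rose while ITGAV, its partner, and ITGB8 fell. Promoter windows of 300 bases, from 250 before to 50 after the RefSeq start on GRCh38.p14, were matched for 7 of the 8 members, all but ITGA3. The 250 bases before the start are printed 5′ to 3′ on the gene's strand, with capitals for matches to any of the motifs searched on both strands. The motifs were the GC box GGGCGG, the AP-1 motif TGANTCA, the TEAD motif CATTCC and the NF-κB consensus GGGRNNYYCC. In these letters R is A or G, Y is C or T and N is any base. GENCODE also annotates transcripts of these 3 genes that begin further upstream.
ITGB5 (chr3:124887366-124887615, minus strand): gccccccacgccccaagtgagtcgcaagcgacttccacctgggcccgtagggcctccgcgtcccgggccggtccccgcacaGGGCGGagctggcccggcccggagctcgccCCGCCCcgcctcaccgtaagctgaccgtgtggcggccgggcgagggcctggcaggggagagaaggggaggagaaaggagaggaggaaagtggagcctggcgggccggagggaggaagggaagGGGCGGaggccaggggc
ITGAV (chr2:186589806-186590055, plus strand): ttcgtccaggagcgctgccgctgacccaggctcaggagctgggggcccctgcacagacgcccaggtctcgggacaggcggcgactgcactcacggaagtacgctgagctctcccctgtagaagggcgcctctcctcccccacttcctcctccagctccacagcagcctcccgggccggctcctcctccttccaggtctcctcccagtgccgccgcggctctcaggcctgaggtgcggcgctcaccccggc
ITGB8 (chr7:20330650-20330899, plus strand): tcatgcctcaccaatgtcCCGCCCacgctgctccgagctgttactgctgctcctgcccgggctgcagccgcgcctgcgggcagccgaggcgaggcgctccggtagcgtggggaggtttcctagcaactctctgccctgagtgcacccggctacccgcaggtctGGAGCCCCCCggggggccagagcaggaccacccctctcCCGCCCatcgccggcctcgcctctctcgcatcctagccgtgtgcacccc
The ITGB5 window held 3 GC boxes and no other match, the ITGAV window held no match, and the ITGB8 window held 2 GC boxes and 1 match to the NF-κB consensus.

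Over the 7 windows, matches were found in members that rose and in members that fell. The NF-κB consensus, found in 11.3% of the 35116 promoter windows in the table, matched in ITGA5 and ITGB1, which rose, and in ITGB8, which fell. In ITGA5 the match at 82 to 73 bases before the start overlapped the single TEAD match there, and TEAD also matched in ITGB1 (14.0% of all windows). The AP-1 motif, present in 7.71% of all windows, matched only in ITGA5 among the 7, across the start itself.
ITGA5 (chr12:54419258-54419280, minus strand, AP-1 match in capitals): ccccgcgtTGAGTCAttcgcctc
GC boxes were found in 44.95% of all windows and in ITGA2 (4), ITGB1 (3), ITGB5 (3), ITGB8 (2) and ITGA5 (1). The window of ITGB6 was 31.7% G and C and held none of the motifs, whereas the other 6 were between 69.3% and 78.3%. A match is a description of these letters and not a binding site.

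Levels between genes were compared per length, as CPM per kilobase of the MANE Select transcript of GENCODE 44. On that scale ITGA3 stood at 119 ± 2.07 (SD, n = 3) and ITGB1 at 140 ± 1.02 in A431CT cells, so the genes of the laminin receptor α3β1 were the most abundant alpha and beta members by a wide margin. ITGA5 at 15.5 ± 0.455 and ITGAV at 14.6 ± 0.847 followed in A431CT cells, where their ranges overlapped although ITGA5 was the higher within each library. In Dsg2KO cells ITGA5 at 18.7 ± 1.19 and ITGAV at 13.0 ± 0.297 did not overlap. ITGA2 was the lowest alpha member at 6.11 ± 0.261 and 7.22 ± 0.293. With the union of all annotated exons as the length, which is 19336 bases for ITGAV against 7039 for its MANE transcript, ITGAV at 5.30 lay below both ITGA5 at 8.94 and ITGA2 at 6.07 in A431CT cells, without overlap. Among the beta members ITGB5 was second, at 18.2 ± 0.530 in A431CT and 28.4 ± 0.538 in Dsg2KO cells. ITGB6 at 4.17 ± 0.287 and ITGB8 at 4.05 ± 0.328 overlapped in A431CT cells, and in Dsg2KO cells ITGB6 at 4.94 ± 0.410 lay above ITGB8 at 3.24 ± 0.389 in every library. With union exon lengths ITGB6 at 3.35 was already above ITGB8 at 2.40 in A431CT cells, without overlap.

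Because subunits act in pairs, the make-up of the alpha and beta pools was compared within each library, where library scaling cancels. These pools hold only the 4 alpha and 4 beta members and leave out other expressed subunits such as ITGA6 and ITGB4. ITGB5 took 10.9% ± 0.321 (SD, n = 3) of the summed per-length level of the 4 beta genes in A431CT and 14.99% ± 0.444 in Dsg2KO cells. The share of ITGB1 fell from 84.1% ± 0.176 to 80.7% ± 0.554 although its own level rose, and ITGB8 went from 2.43% ± 0.209 to 1.71% ± 0.224. ITGB6 kept overlapping shares, at 2.51% ± 0.163 and 2.61% ± 0.208. In the alpha pool, ITGA3 went from 76.7% ± 0.345 to 78.9% ± 0.950 and ITGAV from 9.37% ± 0.550 to 7.01% ± 0.181. The shares of ITGA2 and ITGA5 overlapped between the conditions. On the per-length scale the log2 ratio of ITGB8 to ITGB5 went from -2.17 ± 0.14 to -3.14 ± 0.15, that of ITGB6 to ITGB5 from -2.13 ± 0.13 to -2.53 ± 0.15, and that of ITGAV to ITGA5 from -0.09 ± 0.11 to -0.53 ± 0.06. Of these 12 shares and ratios, 8 did not overlap between the conditions and had p = 0.1 in a two-sided exact permutation test, the smallest p that 3 against 3 libraries allow, or 0.15 after Benjamini-Hochberg adjustment. This test therefore could not reach 0.05 for them. With union exon lengths the change in the ITGB5 share was 7.07 percentage points in place of 4.05, and that of ITGB8 was -1.45 in place of -0.72.

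**Figure D3:**
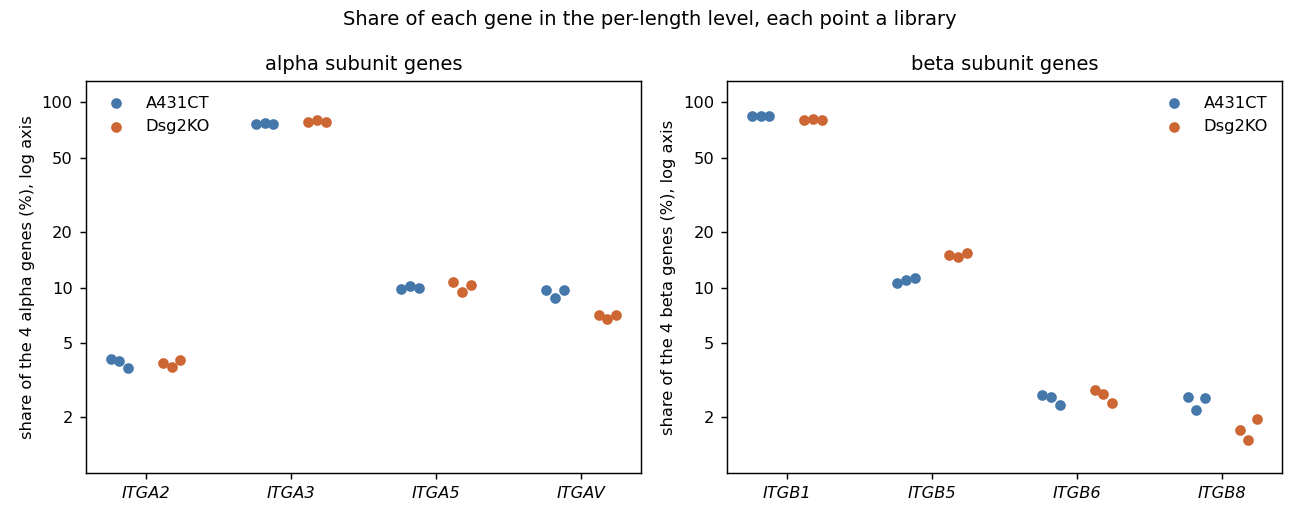
Share of each gene in the summed per-length level of the 4 alpha genes (left) and the 4 beta genes (right), in percent on a log axis, with 1 point per library in A431CT (blue) and Dsg2KO (orange) cells. ITGB5 points lie at 10.6% to 11.2% in A431CT and 14.5% to 15.4% in Dsg2KO cells, ITGAV and ITGB8 points are lower in Dsg2KO cells, and those of ITGA2, ITGA5 and ITGB6 overlap.

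Of the 18 remaining integrin subunits, 9 passed the low-count filter. In edgeR's quasi-likelihood test 0 of the 9 passed an adjusted p of 0.05, against 29.6% of all tested genes. An unadjusted p under 0.05 was reached by 1 of the 9, against 39.5% of all tested genes. DESeq2 called 0 and edgeR's likelihood ratio test called 1 of them. That gene was ITGAD, a leukocyte integrin subunit at 2.38 ± 0.474 and 3.75 ± 0.424 CPM, with a log2 fold change of 0.65 and an adjusted p of 0.0536 (edgeR). ITGA1, another collagen-binding partner of β1, was at 5.88 and 7.38 CPM with a log2 fold change of 0.33 (edgeR adjusted p = 0.16). Like ITGAD, the genes ITGA9, ITGA2B, ITGAM and ITGB2 were low, with A431CT means of 1.44 to 3.50 CPM, where depth limits the test. The hemidesmosome pair ITGA6 and ITGB4, named after their values were seen, had levels within the range of the members, at 330 ± 12.5 and 201 ± 9.35 CPM in A431CT cells. ITGA6 had a log2 fold change of 0.06 with a 95% confidence interval of -0.02 to 0.14, and ITGB4 one of -0.06 with an interval of -0.15 to 0.03. ITGB3, another partner of αv, had at most 1 count in any library.

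Other genes of the adhesion pathway were taken from lists made by function. Among 24 extracellular ligands, 15 were tested, and 6 of them rose and 4 fell by the adjusted p, with a median log2 fold change of 0.06, where 29.6% of all tested genes passed. Past both thresholds were 3 higher and 2 lower genes, against 6.03% of all tested genes. LAMA3, which encodes a laminin alpha chain, rose by 0.53 on the log2 scale, at 21.7 and 31.4 CPM. TNC, which encodes the wound matrix protein tenascin-C, had a log2 fold change of 0.75 at 1.87 and 3.14 CPM, and SPP1, which encodes the RGD ligand osteopontin, one of -1.16 at 5.03 and 2.27 CPM. L1CAM, an adhesion molecule that binds RGD integrins, was at 3.81 ± 1.79 CPM in A431CT and 0.291 ± 0.148 CPM in Dsg2KO cells, where a library held as few as 2 counts, with a log2 fold change of -3.65. Without A431CT replicate 1, LAMA3, SPP1 and TNC lost a threshold and FN1 gained both, and without Dsg2KO replicate 1, LAMA3 and TNC lost one, which left 3 genes each time. TNC lost a threshold whichever of the 6 libraries was left out. FN1, which encodes fibronectin, was at only 1.28 and 2.32 CPM, with a log2 fold change of 0.86 (edgeR adjusted p = 0.0702, with 0.0205 to 0.230 over the alternative fits). It passed both thresholds also with at least 10 counts in every library and under edgeR's likelihood ratio test. VTN, the gene of the αvβ5 ligand vitronectin, had at most 1 count.

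Latent TGF-β and its carriers were represented by 4 tested genes of 8, and whether αvβ6 or αvβ8 acts on each was not tested. By the adjusted p, 3 rose, against 14.3% of all tested genes, and 0 passed both thresholds, against 6.03%. The 3 became 2 without A431CT replicate 1, A431CT replicate 2, Dsg2KO replicate 1 or Dsg2KO replicate 3. TGFB1 rose from 128 to 159 CPM (log2 fold change 0.31) and LTBP3, a carrier of latent TGF-β, from 20.1 to 27.0 CPM (log2 fold change 0.42). TGFB2 had a log2 fold change of 0.50, just under the minimum, with libraries that overlapped between the conditions. It reached both thresholds when A431CT replicate 3 or Dsg2KO replicate 2 was left out. LTBP3 passed both without Dsg2KO replicate 3. DESeq2 also called 0 of these genes past both thresholds and 3 by the adjusted p.

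Inside the cell, 32 of 35 integrin activators and focal adhesion proteins were tested, and 6 rose and 5 fell by the adjusted p, with a median log2 fold change of 0.08. These 34.4% of the list are near the 29.6% of all tested genes. TNS4, an adaptor that binds β1 tails, was the only one past both thresholds, against 6.03% of all tested genes. It was at 12.9 and 24.6 CPM with a log2 fold change of 0.92. The Rap1 module, which switches integrins on through talin, had 10 tested genes of the 13 listed. By the adjusted p, 2 rose and 3 fell, or 50% against 29.6% of all tested genes. Only RAPGEF3, an activator of Rap1, passed both thresholds, against 6.03% of all tested genes. Its log2 fold change was 0.83, at 4.38 and 7.78 CPM. RAP1B, which encodes a Rap1 GTPase itself, had the smallest p of the list and fell by 0.25 on the log2 scale, at 113 and 95.03 CPM. RAP1GAP, which switches Rap1 off, fell by 0.39 on that scale. SIPA1, another such gene, passed both as a lower gene without Dsg2KO replicate 1 and had a log2 fold change of -0.41 with all libraries. Of 18 tested trafficking and inhibitor genes, 2 rose and 2 fell by the adjusted p, or 22.2% against 29.6% of all tested genes. Those that rose were RAB11FIP1 (0.26 on the log2 scale) and SNX27 (0.24), and those that fell were SNX17 (-0.20) and RAB21 (-0.16), all of which act in endosomal trafficking. None passed both thresholds in edgeR's quasi-likelihood test or in DESeq2, and 7 of the 18 had an unadjusted p under 0.05 in edgeR, against 39.5% of all tested genes. Of 12 membrane partners, 3 rose by the adjusted p, against 14.3% of all tested genes. TGM2, a fibronectin co-receptor, was the only partner past both thresholds, against 6.03% of all tested genes. It rose by 1.36 on the log2 scale, with 50.6 ± 2.78 CPM in A431CT and 130 ± 7.25 CPM in Dsg2KO cells. TGM2 and FN1 were genes the study had already picked out in these cells, so their listing is no independent evidence. The study also picked out the collagen genes COL1A1 and COL3A1, which are among the listed ligands. By qPCR it reported higher mRNA of both, and of FN1 and TGM2, in Dsg2KO than in A431CT cells. The counts of COL1A1 showed no such rise, at a low level where depth limits the test. COL1A1 was at 2.45 ± 0.574 CPM in A431CT and 2.55 ± 0.921 CPM in Dsg2KO cells (log2 fold change 0.05, edgeR adjusted p = 0.92). COL3A1 had at most 9 counts in any library and was not tested. PLAUR, the urokinase receptor, passed both thresholds as well without A431CT replicate 2, A431CT replicate 3 or Dsg2KO replicate 3.

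**Figure D4:**
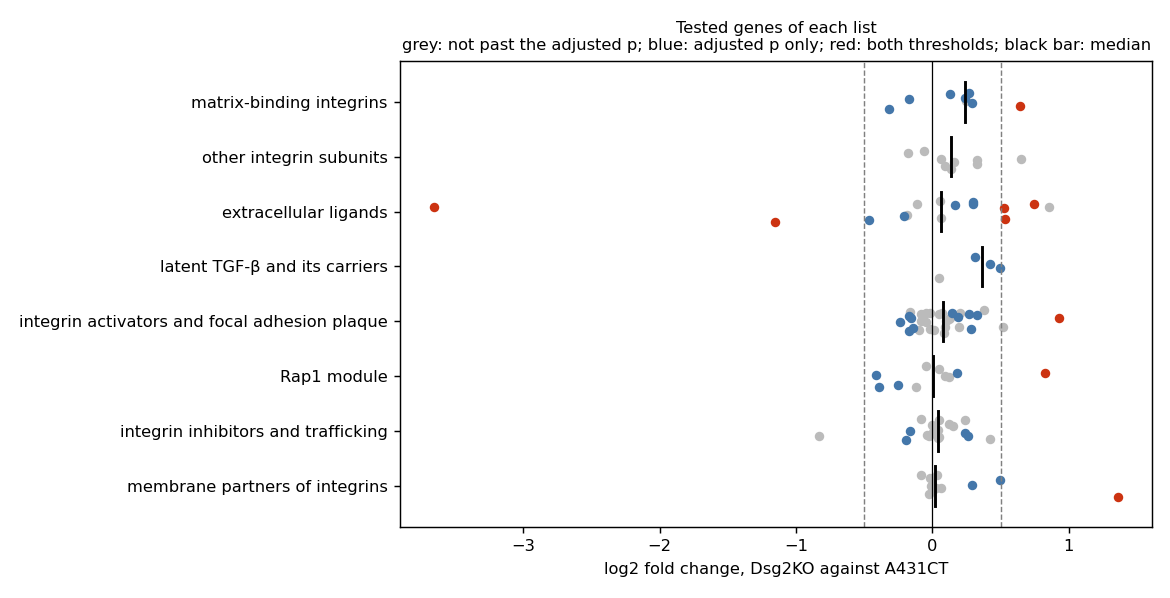
Log2 fold change in Dsg2KO against A431CT cells (horizontal axis) of every tested gene in each list (rows), with colour for the thresholds passed, a black bar for the list's median and dashed lines at 0.5 in either direction. The 8 matrix-binding integrins have a median of 0.24, and the other lists have medians between 0.0003 and 0.37, with single red points such as L1CAM at -3.65 and TGM2 at 1.36.

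To place each member in its chromosomal surroundings, it was set beside the 20 tested genes on either side of it. The stretch these covered was unequal, from 53380176 to 56159647 around ITGA5 but from 40825262 to 60522120 around ITGA2. Around ITGB1 it ran from 25174802 to 44978809, so not all of these comparisons are local. The median log2 fold change of these 40 neighbours lay between -0.06 for ITGA5 and 0.10 for ITGA2. ITGB5 stood 0.61 above the median of its neighbours and ITGB8 differed by -0.30 from its own, close to their log2 fold changes of 0.64 and -0.32. ITGB1, whose neighbours had a median of 0.09, lay only 0.03 above them.

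**Figure D5:**
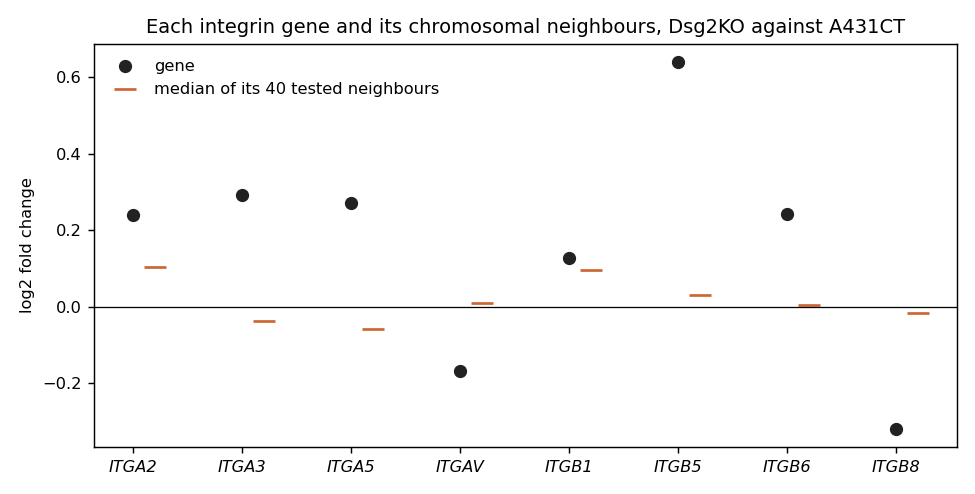
Log2 fold change in Dsg2KO against A431CT cells (vertical axis) of each integrin gene (black point) and the median of its 40 nearest tested genes on the chromosome (orange bar). The medians lie between -0.06 and 0.10, and ITGB1 is the member nearest to its neighbours.

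The genes whose profile was most like that of ITGB5 were UBE2G2, TIMP2 and EFNA3. Their log2 CPM, centred on each gene's mean, differed from ITGB5 by a root mean square of 0.02, 0.03 and 0.03 over the 6 libraries. They encode a ubiquitin-conjugating enzyme, a metalloproteinase inhibitor and an ephrin. For ITGB8 they were FITM2, PDS5B and VPS36, at 0.04, 0.05 and 0.05. With 6 libraries in 2 conditions, any gene with a like fold change and little scatter comes close by this measure.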

How the data were processed

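Poly(A) RNA from A431CT and Dsg2KO cells, 3 libraries each, was sequenced in paired-end mode. With CLC Genomics Workbench the authors trimmed reads, mapped these to GRCh38 and tallied each gene, and the deposited values are raw counts per gene symbol. The gene annotation and strand setting are not given in the sources used here, so reads of antisense genes that overlap a member, as for ITGB5 and ITGB8, cannot be told apart from its own. No column of the table was left unmapped (0 unused).

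Counts were fitted with edgeR 4.0.16 in R 4.3.3 (TMM factors, filterByExpr with a minimum count of 10 and a minimum total of 15, quasi-likelihood F test without covariates, Benjamini-Hochberg over all 12857 genes tested). A gene passed both thresholds with an adjusted p under 0.05 and an absolute log2 difference of at least 0.5. CPM used TMM-scaled library sizes, with a prior count of 2 for log2 CPM. On simulated data both thresholds were passed by 84 of 88 genes changed by 1 on the log2 scale and by 2 of 12568 unchanged genes. Smaller changes, such as those of the members, were not simulated, and calls by the adjusted p alone were not counted. Replicates differed by more than counting error (chi-square per degree of freedom 2.66 to 4.20). The study describes its libraries as biological replicates, and the labels only number them. Same-numbered samples had residual correlations of -0.0027, 0.0135 and 0.0539, and samples with different numbers had -0.0415 to 0.0281. All of these are small and no pairing was used, but whether the numbers pair is not settled. Positions and lengths came from GENCODE 44, in which 19491 symbols matched.

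The 8 members and the lists were chosen with earlier results of these data known. Named genes were the members, DSG2, in each list up to 4 genes past both thresholds with the largest change or, where none passed, up to 2 with the smallest p, and the 3 genes most like the leading member in each direction. FN1, VTN, LAMA3, TGFB2, SIPA1, RAP1B, RAP1GAP, SNX17, RAB21, TWIST2, PLAUR, ITGA6, ITGB3, ITGB4, TGFB1I1 and TNS2 were added after their values were seen. So were EGFR, KRT5, KRT6A, KRT17, SFN, TP63, CDH1, CDH5, PECAM1, VWF, LYZ, CD14, PTPRC, COL1A1, COL3A1, ITGA9, ITGA2B, ITGAM and ITGB2. A gene that the rule names among the ligands is not reported here. The alternatives tried were leaving the low-count filter out, 10 counts or more in every library, RLE factors, total counts only, DESeq2 1.42.0, the likelihood ratio test, a replicate block, each replicate left out, other fold change minimums, union exon lengths and 10 or 40 neighbours per side.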

Additional observations from a re-analysis of the deposited data

How the results depend on the processing

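No member changed direction under any of the 13 alternative fits, and ITGB5 passed both thresholds in all 13, with a log2 fold change of 0.62 to 0.66. ITGA2, ITGA3, ITGA5 and ITGB1 passed the adjusted p in all 13 and both thresholds in 0. With 1 library left out, ITGAV ranged from -0.22 to -0.13, ITGB8 from -0.41 to -0.24 and ITGB6 from 0.19 to 0.31, and 5 to 8 members passed the adjusted p. ITGB6 passed the adjusted p without the low-count filter (0.25), with total counts only (0.27) and under the likelihood ratio test (0.24), and the cause was not tested. With a replicate block, a pairing that the labels do not state, ITGB6 passed as well (0.24). In that fit 769 genes in place of 775 passed both thresholds, and 3975 in place of 3802 passed the adjusted p. Not every library correlated best with its own number. Without a fold change minimum 7 members passed and with a minimum of 1 there were 0, which follows from the minimum.

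In the lists, no minimum gave 10 ligands, 3 latent TGF-β genes, 11 plaque genes, 5 Rap1 genes, 4 trafficking genes and 3 partners, and a minimum of 1 gave 2 ligands, 0 plaque genes and 0 Rap1 genes. ITGAD made it 1 of the remaining subunits with 10 counts in every library, total counts only or the likelihood ratio test. TGFB2 made it 1 latent TGF-β gene without the filter, with 10 counts in every library, with total counts only or with the replicate block. Plaque genes were 2 without the filter (TGFB1I1) and with 10 counts in every library or the likelihood ratio test (TNS2), and partners were 2 without the filter or with total counts only (PLAUR). Leaving out 1 library gave 0 to 1 of the remaining subunits, 3 to 5 ligands, 0 to 1 latent TGF-β genes, 1 to 2 Rap1 genes and 1 to 2 partners. With union exon lengths the share changes were -1.71 percentage points for ITGAV, -5.58 for ITGB1, 7.07 for ITGB5 and -1.45 for ITGB8. Neighbour medians with 10 genes per side were 0.15 for ITGA2, -0.0161 for ITGA5, 0.0738 for ITGAV, 0.14 for ITGB5 and -0.0490 for ITGB8, and with 40 per side -0.0131 for ITGA5 and 0.0506 for ITGB1. Depth limits the genes under about 5 CPM, such as FN1, TNC and ITGAD, more than the members.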
